A study of Mus musculus with 6 samples.

Results

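F-box proteins are the substrate receptors of SCF ubiquitin ligases, and 66 of their genes were followed here in mouse skeletal muscle. A gene belonged to the set when its symbol was Fbxl, Fbxo or Fbxw followed by a number and at least 1 of the 6 libraries held a value above the floor of the table. Of 79 matching symbols, 12 were at the floor in every library. Fbxo32 (atrogin-1), the best known F-box gene of muscle atrophy, was left out by the rule. The table held 53342 genes, of which 30413 were above the floor somewhere. The test covered 17386 genes whose log2 level was at least 4 in at least 2 libraries, and 52 of the 66 F-box genes were among them.

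The libraries came from skeletal muscle of male mice, 2 for each of 3 genotypes. LTKOFstL/L mice carry floxed Irs1, Irs2 and Fst with CreAlb, a Cre driven by the albumin promoter of hepatocytes. The Fst allele has loxP sites that flank exons 2 to 5. LDKO mice are Irs1L/L:Irs2L/L:CreAlb. Control mice are labelled only as Control, as Loxp-muscle and, in the deposited comparisons, as LoxP-Fst. The deletions are thus made in the liver, and muscle carries the floxed alleles. A high fat diet is given in the sample labels, whereas the series text gives chow between 5 and 16 weeks of age, so the diet is not settled. Nothing states that the 2 libraries of a genotype came from separate animals, so p-values measure only the spread between these libraries, which may be technical.

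In an SCF ligase the cullin Cul1 holds the RING protein Rbx1 at one end and the adaptor Skp1 at the other, and Skp1 binds the F-box of a receptor. The rest of the receptor picks the substrate. Fbxl receptors carry leucine-rich repeats, Fbxw receptors carry WD40 repeats, and Fbxo receptors carry other domains. In muscle a few receptors are known for atrophy, for insulin signalling and for turnover of sarcomere proteins.

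Every value below is a log2 value centred on the median of the 6 libraries, so it compares libraries for 1 gene and says nothing of which gene is more abundant. Differences are between means of log2 values with the moderated standard error (SE) of limma, and the words rose and fell are used only for a Benjamini-Hochberg adjusted p under 0.05 over all 17386 genes. The absolute level could be placed only in a range, from the rounding step of the stored numbers. In the lowest library, 28 F-box genes had a log2 level of 8 or more, 21 lay between 4 and 8 and 17 lay under 4. All 14 untested F-box genes were in the lowest range.

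Read totals are not in the files, and depth is therefore unknown. Each library held 23858 to 24554 genes above the floor. A single read was worth 2.03 to 2.12 scaled units in LTKOFstL/L and Control and 1.76 and 1.81 in LDKO. The deletions are hepatic, so muscle transcripts of Irs1, Irs2 and Fst do not check the labels. All 10 muscle fibre markers were above the floor in every library. Acinar genes of the pancreas stood apart in Control, as their median centred value was −1.44 and −1.07 in LTKOFstL/L, 0.61 and −0.85 in LDKO, and 11.86 and 7.76 in Control. Of the 36 acinar genes, 26 and 24 were at the floor in LTKOFstL/L, 8 and 17 in LDKO, and 0 and 1 in Control.

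The gene on which the results turn, Fbxo44, sits in a trio of F-box genes on chromosome 4. On GRCm38, Fbxo6 (ENSMUSG00000055401) spans chr4:148145716-148152140 on the minus strand, Fbxo44 (ENSMUSG00000029001) spans chr4:148152800-148160482 on the minus strand and Fbxo2 (ENSMUSG00000041556) spans chr4:148160621-148166424 on the plus strand. Fbxo44 and Fbxo2 are transcribed away from each other with 138 bases between their annotated ends, and 659 bases separate Fbxo6 from Fbxo44. Both intervals are shown because they hold the sequence just before these starts, with CG dinucleotides in capitals. The first is chr4:148160483-148160620 on the plus strand, all of the bases between Fbxo44 and Fbxo2. The second is chr4:148152141-148152385 on the minus strand, the 245 bases before Fbxo6. Both were cut from RefSeq promoter windows on GRCm38.p6.
Fbxo44 to Fbxo2: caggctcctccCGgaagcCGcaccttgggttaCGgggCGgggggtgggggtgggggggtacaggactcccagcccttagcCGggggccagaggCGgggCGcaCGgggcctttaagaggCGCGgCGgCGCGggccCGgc
before Fbxo6: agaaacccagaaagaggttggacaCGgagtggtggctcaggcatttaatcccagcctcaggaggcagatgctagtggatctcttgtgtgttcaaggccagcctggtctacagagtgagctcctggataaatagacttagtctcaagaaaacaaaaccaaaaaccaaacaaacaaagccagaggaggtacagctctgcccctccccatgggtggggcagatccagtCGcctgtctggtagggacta
The stretch between Fbxo44 and Fbxo2 was 77.5% G and C with 14 CG dinucleotides, which began at 10.1% of the bases. The stretch before Fbxo6 was 51.4% G and C with 2 CG dinucleotides, which began at 0.816% of the bases. Over the 250 bases before each of 32851 RefSeq mouse starts the medians were 52.4% and 2.4%, and over the 71 windows that belong to 50 of the F-box genes they were 58.4% and 5.6%. The FoxO word GTAAACA, searched on both strands, was in 0 of the 71 F-box windows and in 3.17% of all windows. The Smad word CAGAC, searched on both strands, was in 40.8% of the F-box windows and in 42.2% of all windows. The palindromic E-box word CACGTG was in 4.23% of the F-box windows and in 6.02% of all windows. None of the 3 words contains another. Of the 2 stretches printed, the one before Fbxo6 held 1 Smad word and the other held 0 of these words. That other stretch has only 138 bases. In the windows of 250 bases, 18 of the 50 F-box genes had a Smad word, Fbxo44 and Fbxo6 among them.

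LTKOFstL/L against Control asks how muscle differs once the liver has lost Irs1, Irs2 and Fst. Fbxo44 rose in LTKOFstL/L muscle and was 1 of 52 tested F-box genes to pass, against a background of 1.95% of all tested genes (339 of 17386). Fbxo44 encodes a receptor that marks BRCA1 for degradation in human cells and is listed here with the glycoprotein receptors. Whether Fbxo44 itself binds glycans was not examined. Its values were 0.99 and 1.27 in LTKOFstL/L, −0.77 and 0.77 in LDKO, and −1.52 and −1.59 in Control. The 3 genotypes did not overlap, with LTKOFstL/L highest, Control lowest and the 2 LDKO libraries far apart between them. The difference from Control was 2.69 ± 0.47 (SE, n = 2 libraries per genotype, adjusted p = 0.0344 by limma), a 6.43-fold higher level with a 95% interval of 3.04 to 13.6. The call was lost without any 1 of the 4 LTKOFstL/L and Control libraries (adjusted p = 0.106 to 0.209) and with no level filter (0.076). It was also lost with 1 variance prior over all genes (0.141). On tables simulated with the spreads of the main fit, that prior called 0% of the genes changed by log2 2, against 69% in the main fit. On the real values it called 23 genes in this comparison. The simulation takes the main fit as true, so it cannot decide between these priors. The difference is between group means, so the prior, the level filter, the replicate block and the LDKO libraries cannot move it. With another scale or without 1 LTKOFstL/L or Control library it lay between 2.54 and 2.83.

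Fbxo44 had a difference of 1.13 ± 0.47 in LTKOFstL/L against LDKO (adjusted p = 0.251) and of 1.56 ± 0.47 in LDKO against Control (adjusted p = 0.569), neither of which passed. Both depend on which LDKO library is used, and with 1 LDKO library left its spread is taken from the other genotypes. The difference of LTKOFstL/L from LDKO was 0.36 without LDKO 1 (adjusted p = 0.638) and 1.90 without LDKO 2 (adjusted p = 0.0322). The difference of LDKO from Control was 2.33 without LDKO 1 (adjusted p = 0.0933) and 0.79 without LDKO 2 (adjusted p = 0.314). Both differences passed with a spline trend of the variance over the level (adjusted p = 0.0306 and 0.000580). In the authors' deposited tables, restricted to changes of 2-fold or more and a corrected p below 0.05, Fbxo44 was in all 3 comparisons, with log2 differences of 2.69, 1.13 and 1.56. Of 12 adipocyte markers, 10 had a higher mean in LTKOFstL/L than in Control, against 8689 of all 17386 tested genes. Their differences ran from −0.87 for Pnpla2, which encodes a triglyceride lipase, to 3.29 for Retn. The means of the 12 markers were higher in LTKOFstL/L than in LDKO for 11 and higher in LDKO than in Control for 5. By limma 1, 2 and 0 of the 12 passed in these comparisons, against 1.95%, 2.39% and 0.247% of all tested genes. At an unadjusted p under 0.05 there were 8, 8 and 1, against 15.1%, 18.7% and 6.9%. The median centred value over the 12 genes was 1.48 and 0.39 in LTKOFstL/L, −0.65 and 0.05 in LDKO, and −0.20 and −0.20 in Control, with none at the floor. The part of fat cells in the Fbxo44 result was not tested, and in bulk tissue fewer cells of a type and less RNA per cell cannot be told apart. The Fbxo44 call stood in a fit without the acinar genes. That fit leaves the values of Fbxo44 as they were, so the part of acinar RNA in Control was not tested.

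**Figure D1:**
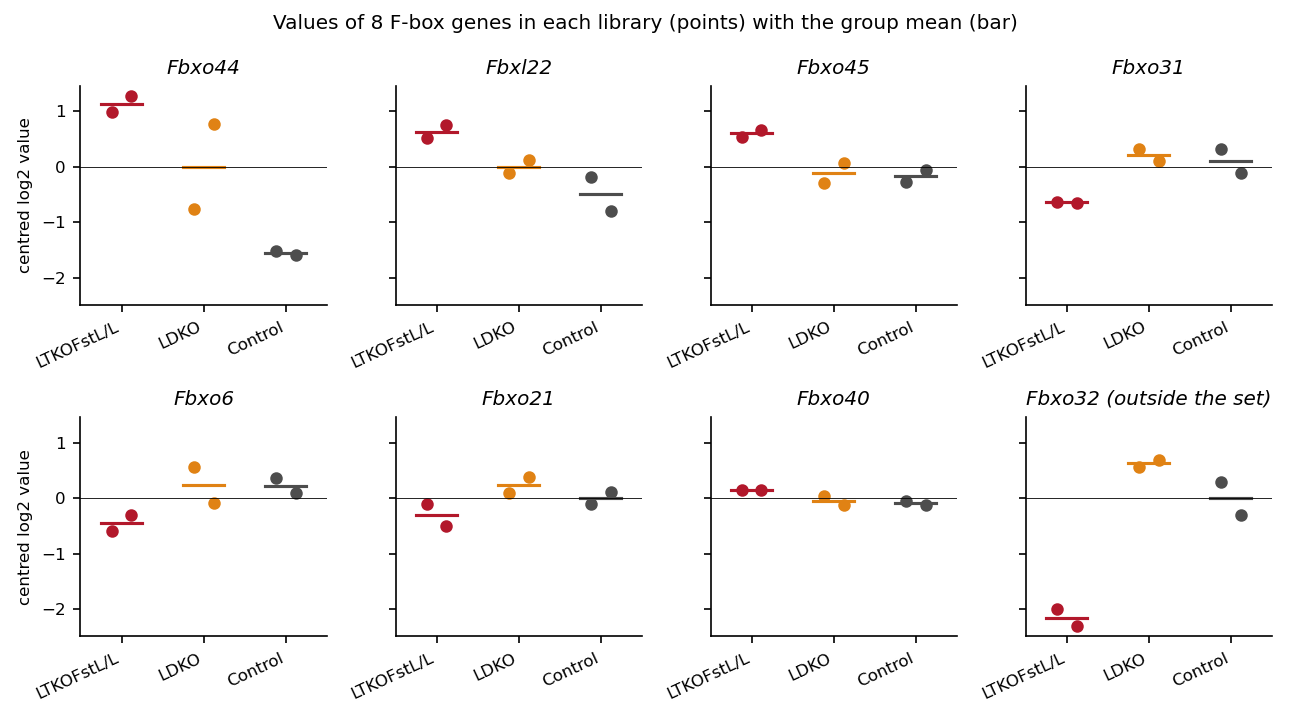
Centred log2 values (y axis) of 8 F-box genes in the 2 libraries of LTKOFstL/L, LDKO and Control (x axis). Points are libraries and bars are group means. Fbxo44 lies at 0.99 and 1.27 in LTKOFstL/L and at −1.52 and −1.59 in Control, and Fbxo32, which is outside the set, is lowest in LTKOFstL/L.

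Of the 10 other tested genes whose bodies lie within 250 kb, 0 passed by limma in LTKOFstL/L against Control, LTKOFstL/L against LDKO or LDKO against Control, with 4, 2 and 0 at an unadjusted p under 0.05. Of all tested genes 1.95%, 2.39% and 0.247% passed and 15.1%, 18.7% and 6.9% had an unadjusted p under 0.05, so 0 calls among 10 genes is near the background. Fbxo6, the neighbour on the same strand, encodes a receptor that binds N-glycosylated proteins in endoplasmic reticulum quality control. Its values were −0.59 and −0.31 in LTKOFstL/L, 0.56 and −0.09 in LDKO, and 0.36 and 0.09 in Control. Both LTKOFstL/L libraries were below all others, the opposite direction to Fbxo44. The differences were −0.67 ± 0.24 from Control (adjusted p = 0.249) and −0.68 ± 0.24 from LDKO (adjusted p = 0.198). Fbxo2, which binds high-mannose glycans and is known from neurons, had values of 1.28 and −0.97 in LTKOFstL/L, 0.39 and −0.23 in LDKO, and 0.03 and −0.03 in Control. Its LTKOFstL/L libraries lay above and below all the others, and its difference from Control was 0.15 with a 95% interval of −1.67 to 1.98. Fbxo2 was among the 3 tested F-box genes in the lowest range of levels, and the difference of 2.69 seen for Fbxo44 lay outside its interval. Mad2l2, a subunit of a translesion polymerase that lies beyond Fbxo6, differed from Control by −0.78 ± 0.24 (adjusted p = 0.189).

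**Figure D2:**
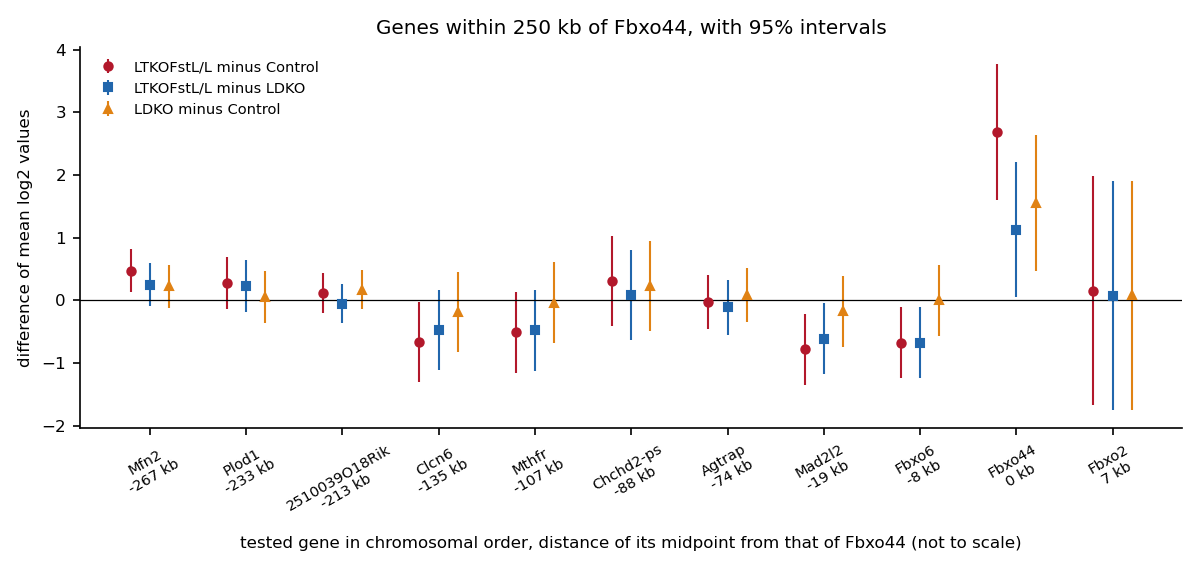
Differences of mean log2 values (y axis) with 95% intervals for the tested genes within 250 kb of Fbxo44 in chromosomal order (x axis, with the distance between midpoints). Fbxo44 stands at 2.69 in LTKOFstL/L against Control, and its neighbours Fbxo6 and Fbxo2 stand at −0.67 and 0.15.

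The other genes listed as glycoprotein receptors, Fbxo17 and Fbxo27, lie together on chromosome 7. Fbxo17 had values of 0.35 and 0.64 in LTKOFstL/L, 0.58 and −0.60 in LDKO, and −0.37 and −0.35 in Control. Both of its LTKOFstL/L libraries were above both Control libraries, while the LDKO libraries spanned the range. Fbxo27, which marks damaged lysosomes through their glycoproteins, had values of 0.64 and 0.62 in LTKOFstL/L, −0.63 and −0.03 in LDKO, and 0.03 and −0.47 in Control. Its LTKOFstL/L libraries were above all others. The differences from Control were 0.85 ± 0.40 for Fbxo17 (adjusted p = 0.372) and 0.85 ± 0.66 for Fbxo27 (adjusted p = 0.603). Of the 5 genes listed as glycoprotein receptors, 4 had a higher mean in LTKOFstL/L than in Control and Fbxo6 had a lower one. The 1 that passed was Fbxo44. Of all 17386 tested genes, 8689 had a higher mean and 1.95% passed.

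Receptors with known roles in muscle and its wasting gave 0 calls by limma among 9 genes in each comparison, with 2, 2 and 0 at an unadjusted p under 0.05 in LTKOFstL/L against Control, LTKOFstL/L against LDKO and LDKO against Control. The background of calls was 1.95%, 2.39% and 0.247%, and 15.1%, 18.7% and 6.9% of all tested genes had an unadjusted p under 0.05. Fbxl22, a receptor at the sarcomere that turns over alpha-actinin and filamin C in heart muscle, had values of 0.52 and 0.74 in LTKOFstL/L, −0.11 and 0.11 in LDKO, and −0.19 and −0.80 in Control. As with Fbxo44, the 3 genotypes did not overlap and LTKOFstL/L was highest, an order held by 2 of 52 F-box genes and by 2.14% of all tested genes. The difference of Fbxl22 from Control was 1.13 ± 0.31, or 2.19-fold with a 95% interval of 1.33 to 3.59, and did not pass (adjusted p = 0.135). The authors' deposited table for this comparison lists it at 1.13. Fbxl22 shares 317 exonic bases, 8.06% of its own, with Herc1 on the other strand, and whether the counting used strand is not given.

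Fbxo31, a receptor for cyclin D1 that FoxO factors induce in wasting mouse muscle, had the lowest difference from Control of the 52 F-box genes. Its values were −0.63 and −0.65 in LTKOFstL/L, 0.32 and 0.11 in LDKO, and 0.32 and −0.11 in Control. Both LTKOFstL/L libraries were well below the other 4, which overlapped each other. The differences were −0.75 ± 0.18 from Control (adjusted p = 0.113) and −0.85 ± 0.18 from LDKO (adjusted p = 0.0638). The difference from LDKO passed with only genes of level 8 or more tested (adjusted p = 0.0458), with the SCF core list as the scale (−1.07, 0.0325) and without LDKO 2 (−0.96, 0.0450), where the spread of the 1 LDKO library left is that of the other genotypes.

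The other wasting receptors showed smaller differences. Fbxo21 (SMART), a FoxO target in denervated mouse muscle, had values of −0.10 and −0.50 in LTKOFstL/L, 0.10 and 0.38 in LDKO, and −0.11 and 0.10 in Control. LTKOFstL/L and LDKO did not overlap, and their difference was −0.54 ± 0.19 (adjusted p = 0.201). Fbxo30 (MUSA1), which BMP signalling holds down in mouse muscle, had values of −0.11 and −0.40 in LTKOFstL/L, 0.02 and 0.67 in LDKO, and 0.06 and −0.02 in Control. The LTKOFstL/L libraries were below all others, with differences of −0.28 ± 0.31 from Control (adjusted p = 0.752) and −0.60 ± 0.31 from LDKO (adjusted p = 0.356). Fbxo31, Fbxo21 and Fbxo30 all had their lowest mean in LTKOFstL/L, but none of them passed in the main fit. Of the 9 receptors with muscle roles, 6 had a lower mean in LTKOFstL/L than in Control and 3 had a higher one. Of all 17386 tested genes, 8697 had a lower mean and 8689 a higher one. Fbxo32, outside the set, fell in LTKOFstL/L muscle by 2.15 against Control (adjusted p = 0.00733 by limma) and by 2.78 against LDKO (adjusted p = 0.00535). The call against Control was lost with a spline trend (0.191) and with 1 variance prior over all genes (0.0739).

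Fbxo40, a muscle-specific receptor that targets the insulin receptor substrate Irs1 in mouse muscle, had values of 0.14 and 0.14 in LTKOFstL/L, 0.04 and −0.13 in LDKO, and −0.04 and −0.13 in Control. The LTKOFstL/L libraries were highest, but the differences were 0.23 ± 0.14 from Control (adjusted p = 0.514) and 0.19 ± 0.14 from LDKO (adjusted p = 0.528). The interval of the difference from Control, −0.10 to 0.56, held no change of 2-fold in either direction. Differences as bounded were found for Fbxo9, the receptor for Tel2 and Tti1, at −0.11 (95% interval −0.42 to 0.20), for Fbxo7, which works with Parkin in mitophagy, at −0.19 (−0.61 to 0.22), and for Fbxl4, which restrains mitophagy at the outer mitochondrial membrane, at −0.39 (−0.84 to 0.07). Fbxo25, a receptor that acts on cardiac transcription factors, stood at 0.26 (−0.34 to 0.87).

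Fbxo45 was the other gene near the threshold. It forms an atypical ligase with Mycbp2 and is required for neuromuscular synapses in mice. Its values were 0.54 and 0.66 in LTKOFstL/L, −0.29 and 0.06 in LDKO, and −0.28 and −0.06 in Control. Both LTKOFstL/L libraries were above the other 4, and LDKO and Control overlapped. The differences were 0.77 ± 0.17 from Control (adjusted p = 0.0907) and 0.71 ± 0.17 from LDKO (adjusted p = 0.0893), a 1.70-fold and a 1.64-fold higher level. The first passed when only the 4 libraries of LTKOFstL/L and Control were fitted (adjusted p = 0.0286 by limma). Leaving out either LDKO library repeats that fit for this comparison and adds no separate support. The second was 0.88 without LDKO 2, again with the spread of 1 LDKO library taken from the other genotypes.

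At an adjusted p under 0.10 the counts were 2 of 52 in LTKOFstL/L against Control, 2 in LTKOFstL/L against LDKO and 0 in LDKO against Control, against 3.46%, 5.71% and 0.288% of all tested genes. At an unadjusted p under 0.05, 8 of 52 F-box genes differed between LTKOFstL/L and Control, or 15.4%, against 15.1% of all tested genes. Beside Fbxo44, Fbxl22, Fbxo45, Fbxo31 and Fbxo6 these included Fbxl19 and Fbxo18. Fbxl19, which binds CpG islands through a zinc finger, had values of 0.00 and 0.69 in LTKOFstL/L, 0.25 and −0.00 in LDKO, and −0.27 and −0.66 in Control. Both Control libraries were lowest, and the difference between LTKOFstL/L and Control was 0.81 ± 0.33 (adjusted p = 0.301). Fbxo18, a DNA helicase with an F-box, had values of 0.43 and 0.30 in LTKOFstL/L, −0.06 and 0.02 in LDKO, and −0.02 and −0.03 in Control. LTKOFstL/L was above both other genotypes, by 0.39 ± 0.14 over Control (adjusted p = 0.237) and 0.38 ± 0.14 over LDKO (adjusted p = 0.199).

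Fbxw11 (beta-TrCP2), a receptor for PER proteins, beta-catenin and IkB, differed by 0.08 ± 0.21 from Control and by 0.14 ± 0.21 from LDKO (adjusted p = 0.907 and 0.780). Fbxw7, the receptor for Myc, Jun, cyclin E and Notch, had values of 0.04 and −0.04 in LTKOFstL/L, 0.38 and 0.11 in LDKO, and −0.10 and −0.12 in Control. LDKO was highest and Control lowest without overlap, and the differences were 0.11, −0.24 and 0.35 for LTKOFstL/L against Control, LTKOFstL/L against LDKO and LDKO against Control (adjusted p = 0.798, 0.444 and 0.731). Fbxl21 was too low to test. It amounted to 2.99 and 1 read equivalents in LTKOFstL/L, 1 and 1.25 in LDKO, and 0 and 2 in Control, which overlap.

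LTKOFstL/L against LDKO sets the loss of hepatic Fst against the Irs1 and Irs2 deletion alone. None of the 52 F-box genes passed by limma, against a background of 2.39% (416 of 17386). At an unadjusted p under 0.05 there were 9, or 17.3%, against 18.7% of all tested genes. They were Fbxo44, Fbxo45, Fbxo18 and Fbxo8 with higher means in LTKOFstL/L, and Fbxo31, Fbxo6, Fbxo21, Fbxl20 and Fbxl6 with lower ones. Fbxl20, known from synapses, had values of −0.01 and −0.43 in LTKOFstL/L, 0.27 and 0.41 in LDKO, and −0.13 and 0.01 in Control. LDKO was highest, and the difference was −0.56 ± 0.18 (adjusted p = 0.165). Fbxo8, which acts on the small GTPase Arf6, had values of 0.27 and 0.08 in LTKOFstL/L, −0.48 and −0.16 in LDKO, and −0.08 and 0.10 in Control. LDKO was lowest, and the difference was 0.50 ± 0.17 (adjusted p = 0.187).

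In LDKO against Control the question is how muscle differs once Irs1 and Irs2 are deleted in the liver. None of the 52 F-box genes passed by limma, against a background of 0.247% (43 of 17386), and 30 of those 43 genes were on the acinar list. At an unadjusted p under 0.05 there were 2, Fbxo44 and Fbxl6, or 3.85%, against 6.9% of all tested genes. Fbxl6 had values of −0.11 and 0.01 in LTKOFstL/L, 0.47 and 0.24 in LDKO, and −0.01 and −0.10 in Control. LDKO was above both other genotypes, by 0.41 ± 0.15 over Control (adjusted p = 0.663). Fbxo36 differed by 0.51 ± 0.27 (adjusted p = 0.788). Fbxl5, the iron sensor that degrades iron regulatory protein 2, had values of 0.25 and −0.13 in LTKOFstL/L, −0.36 and −0.10 in LDKO, and 0.10 and 0.24 in Control. LDKO lay below Control without overlap, with a difference of −0.40 ± 0.18 (adjusted p = 0.755).

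**Figure D3:**
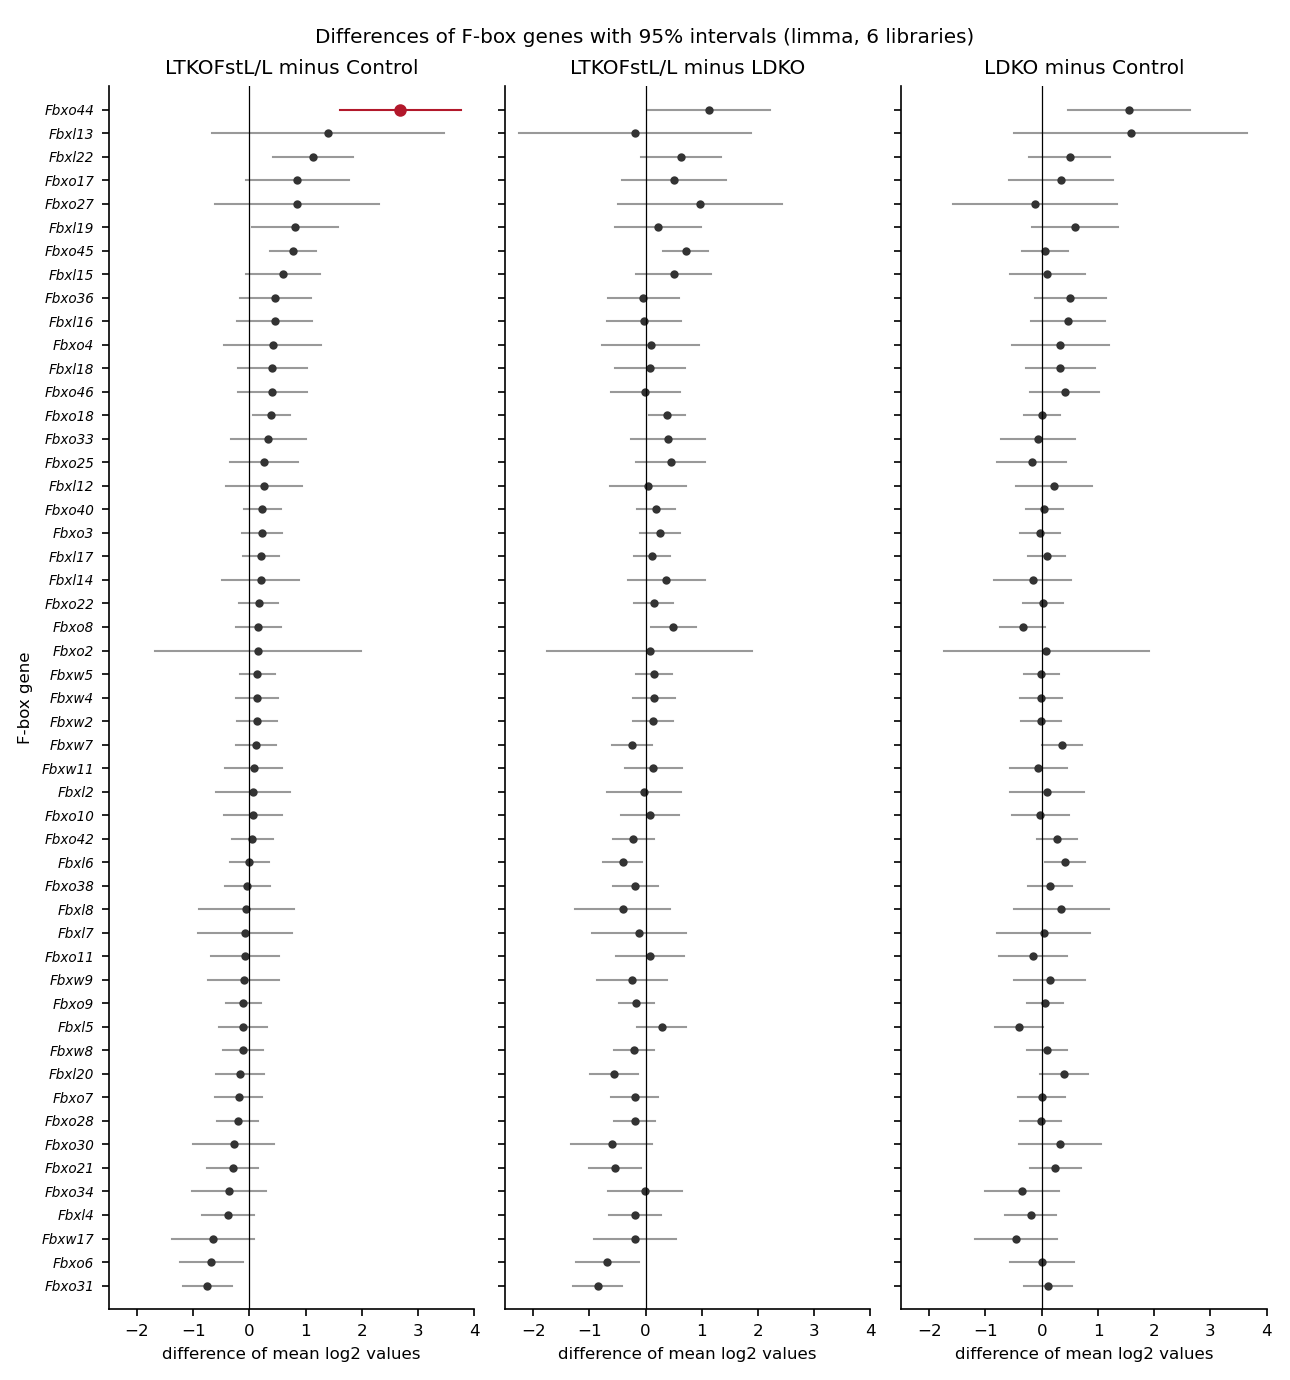
Differences of mean log2 values (x axis) with 95% intervals for 51 of the 52 tested F-box genes (y axis) in LTKOFstL/L minus Control, LTKOFstL/L minus LDKO and LDKO minus Control. The gene that passed, Fbxo44 at 2.69 in LTKOFstL/L minus Control, is in red, and the widest intervals belong to Fbxl13, Fbxo2 and Fbxo27.

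As a group the F-box genes varied less than all tested genes, but these sets were not matched for level. Of the 52 tested F-box genes, 3 had a log2 level under 4 and 28 a level of 8 or more. Of all 17386 tested genes, 2461 and 7646 did. The prior standard deviation of the main fit was 0.75 under 4 and 0.17 at 8 or more. Whether F-box genes vary less than other genes of the same level was not tested. The median gap between the 2 libraries of a genotype was 0.16 for LTKOFstL/L, 0.30 for LDKO and 0.19 for Control over the 52 genes, against 0.23, 0.35 and 0.25 over all tested genes. The median absolute difference was 0.23 for LTKOFstL/L against Control, 0.20 for LTKOFstL/L against LDKO and 0.16 for LDKO against Control, against 0.27, 0.31 and 0.21 over all tested genes. For LTKOFstL/L against Control the median difference was larger than the median gap within either genotype. For LTKOFstL/L against LDKO it lay between the gaps of these genotypes, and for LDKO against Control it was smaller than both. These measures are unlike, because a gap is between single libraries and a difference is between means of 2, which vary less. Their order thus does not show whether a comparison exceeds the spread between replicates. The 95% interval lay wholly within a 2-fold change for 33, 36 and 37 of the 52 genes in these comparisons, or 63.5%, 69.2% and 71.2%, against 55.1%, 51.6% and 59.4% of all tested genes.

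In LTKOFstL/L against Control, 24 of 52 F-box genes (46.2%) had both LTKOFstL/L libraries above both Control libraries, against 24.9% of all tested genes, and 11 (21.2%) had both below, against 24.6%. The median difference was 0.13 for the F-box genes and −0.00 for all tested genes. Setting the median of tested genes to 0 in each library left the F-box counts at 24 and 11. The SCF core scale moved the counts above and below, for the F-box genes and for all genes alike. With each library set to the mean of the SCF core list, all differences in this comparison shifted by −0.13. Then 16 of the 52 F-box genes lay wholly above and 16 of the 52 wholly below, against 15.9% and 34.8% of all tested genes. The median difference was then 0.01 for the F-box genes and −0.13 for all tested genes. In LTKOFstL/L against LDKO, 15 of 52 lay wholly above and 13 wholly below (28.8% and 25%, against 24.7% and 24.1%). In LDKO against Control the counts were 12 and 5 (23.1% and 9.62%, against 16.4% and 16.9%).

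By architecture, the 17 tested Fbxl genes of 18 had median differences of 0.20 for LTKOFstL/L against Control, −0.02 for LTKOFstL/L against LDKO and 0.22 for LDKO against Control. The 27 tested Fbxo genes of 35 had medians of 0.16, 0.08 and 0.04. The 8 tested Fbxw genes of 13 had medians of 0.10, −0.03 and −0.01, and their differences stayed between −0.65 and 0.35 in these comparisons. Fbxo44 was the 1 call in all of these groups. The largest F-box difference in LDKO against Control, 1.58 ± 0.93 for Fbxl13 (adjusted p = 0.795), rests on a gene of low level whose Control libraries lay at −2.42 and 0.10.

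**Figure D4:**
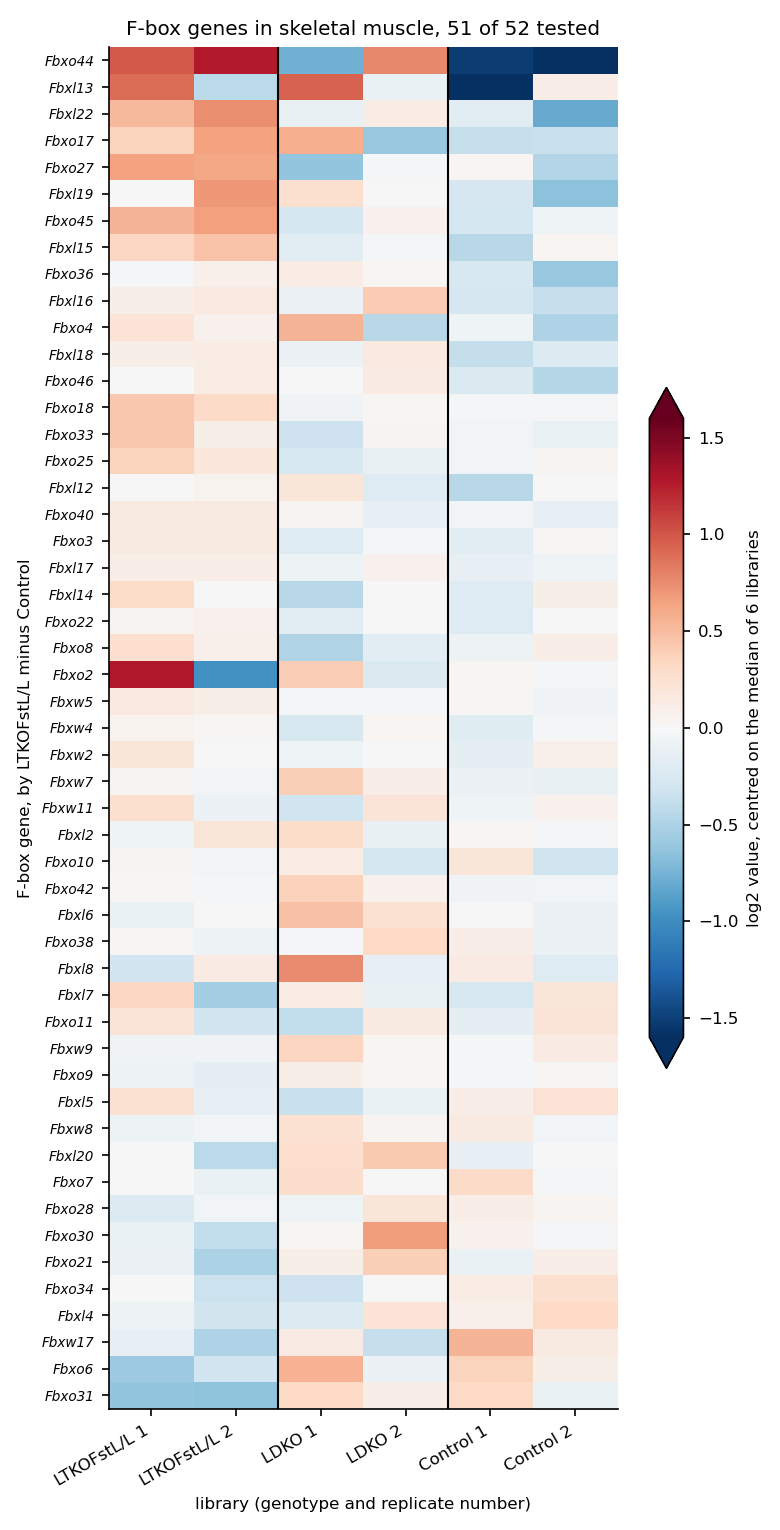
Centred log2 values (colour) of 51 of the 52 tested F-box genes (rows, by their difference between LTKOFstL/L and Control) in the 6 libraries (columns). Fbxo44 at the top is 0.99 and 1.27 in LTKOFstL/L and −1.52 and −1.59 in Control, and Fbxo31 at the bottom is −0.63 and −0.65 in LTKOFstL/L.

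The 66 genes were spread over 19 chromosomes, with 9 on chromosome 9 and 6 each on chromosomes 4, 5 and 11. The chromosome 9 genes include Fbxw19, Fbxw20, Fbxw21 and Fbxw27, closely related mouse copies among which reads may be divided, and none of these was tested. Among the 14 untested genes, Fbxw10 reached 2 and 6.5 read equivalents in LTKOFstL/L, 7.99 and 6.26 in LDKO, and 0 and 2.5 in Control. LDKO was above Control, and the authors' deposited table lists Fbxw10 in LDKO against Control at a log2 difference of 2.49, a value set by the floor in Control 1. Fbxo43, an inhibitor of the anaphase-promoting complex in meiosis, had 2 and 3 read equivalents in LTKOFstL/L, 2 and 2 in LDKO, and 1 and 0 in Control. Fbxo39, Fbxo41, Fbxo47, Fbxo48, Fbxw20, Fbxw21 and Fbxw27 did not exceed 2 read equivalents in any library, and no difference was detectable at that depth.

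The ligase core gave 0 calls by limma among 25 tested genes in each comparison, with 3, 6 and 1 at an unadjusted p under 0.05 in LTKOFstL/L against Control, LTKOFstL/L against LDKO and LDKO against Control, against 15.1%, 18.7% and 6.9% of all tested genes. Its median difference was 0.11 for LTKOFstL/L against Control, 0.14 for LTKOFstL/L against LDKO and −0.07 for LDKO against Control, against medians between −0.00 and 0.00 for all tested genes. In LTKOFstL/L against LDKO, 22 of the 25 genes had a higher mean in LTKOFstL/L. The scaffold Cul1 went the other way, with values of −0.41 and −0.33 in LTKOFstL/L, 0.04 and −0.00 in LDKO, and 0.11 and 0.00 in Control. The LTKOFstL/L libraries were below the other 4, by 0.39 ± 0.14 against LDKO (adjusted p = 0.190) and by 0.43 ± 0.14 against Control (adjusted p = 0.198). Glmn, whose product glomulin blocks Rbx1, had values of 0.88 and 0.98 in LTKOFstL/L, −0.85 and −0.16 in LDKO, and −0.42 and 0.16 in Control. LTKOFstL/L was above all others, by 1.43 ± 0.34 over LDKO (adjusted p = 0.0758). The adaptor Skp1a differed by −0.01 and 0.11 and Rbx1 by 0.13 and 0.20 in LTKOFstL/L against Control and against LDKO. Among F-box genes with other symbols, 0 of 7 tested passed by limma in any comparison, with 3, 2 and 0 at an unadjusted p under 0.05, against the same background. The 3 in LTKOFstL/L against Control were Ect2l at 1.82, Lmo7 at −0.43 and Lrrc29 at −0.79. Btrc (beta-TrCP1) stood at 0.04, −0.03 and 0.08 and Kdm2a at −0.40, −0.41 and 0.01 for LTKOFstL/L against Control, LTKOFstL/L against LDKO and LDKO against Control.

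Transcripts of 15 genes whose proteins are known substrates of these receptors were read as a list. Of these, 1 passed in LTKOFstL/L against Control, 2 in LTKOFstL/L against LDKO and 0 in LDKO against Control, against 1.95%, 2.39% and 0.247% of all tested genes. At an unadjusted p under 0.05 there were 7, 6 and 3, against 15.1%, 18.7% and 6.9% of all tested genes. Jun, a substrate of Fbxw7, fell in LTKOFstL/L, with values of −0.75 and −1.04 in LTKOFstL/L, −0.21 and 0.21 in LDKO, and 0.65 and 0.45 in Control. The genotypes did not overlap, and the difference from Control was −1.45 ± 0.20 (adjusted p = 0.0204), which passed in 8 of 15 other settings (adjusted p = 0.00311 to 0.141). Cry2, a repressor of the circadian clock, had values of −0.44 and −0.52 in LTKOFstL/L, 0.35 and 0.47 in LDKO, and 0.18 and −0.18 in Control, and fell against LDKO by 0.89 ± 0.16 (adjusted p = 0.0462). Per1, a substrate of beta-TrCP, had values of −0.62 and −0.80 in LTKOFstL/L, 0.01 and 0.16 in LDKO, and −0.01 and 0.02 in Control, and fell against LDKO by 0.80 ± 0.14 (adjusted p = 0.0440). The Cry2 and Per1 calls stood in 4 and 5 of 15 other settings (adjusted p = 0.0247 to 0.235 and 0.0188 to 0.255). Leaving out a library of the genotype not compared repeats the fit of the 2 groups alone, so these are not 15 separate checks. Irs1, the substrate of Fbxo40, differed from Control by −0.46 in LTKOFstL/L and −0.41 in LDKO (adjusted p = 0.466 and 0.819 by limma). Over the 15 genes the median difference was −0.22 for LTKOFstL/L against Control, −0.11 for LTKOFstL/L against LDKO and −0.04 for LDKO against Control. These are transcripts, on which a ubiquitin ligase does not act directly.

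**Figure D5:**
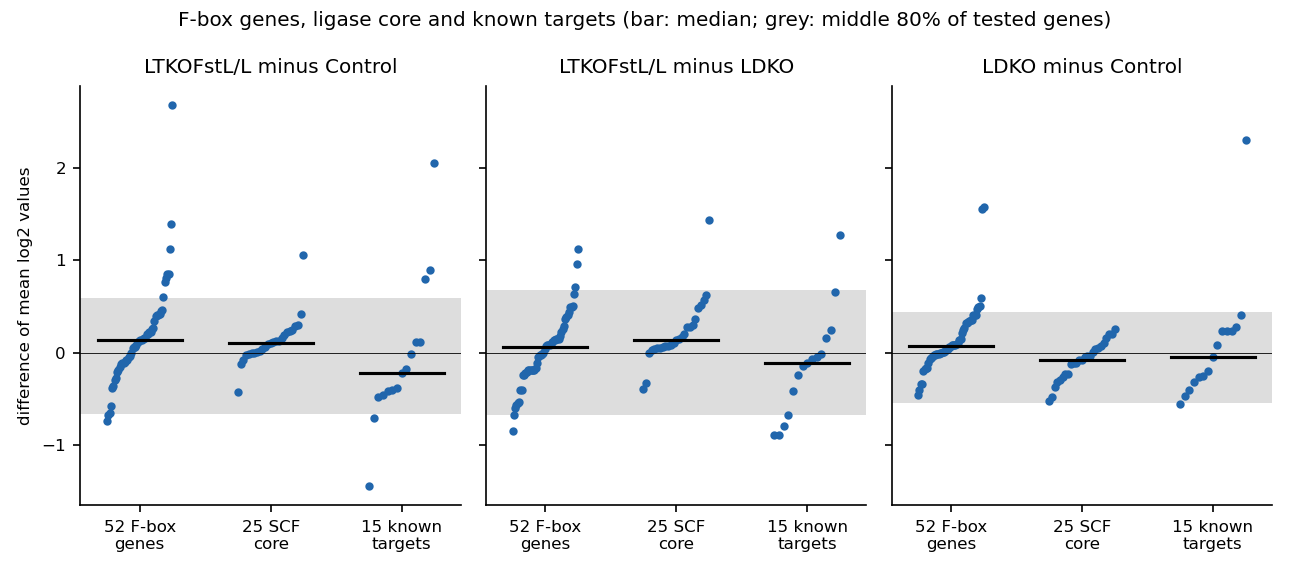
Differences of mean log2 values (y axis) of 52 F-box genes, 25 genes of the SCF core and 15 known targets in LTKOFstL/L minus Control, LTKOFstL/L minus LDKO and LDKO minus Control. Points are genes, bars are medians, and the grey band holds the middle 80% of all tested genes. Fbxo44 at 2.69, Glmn at 1.43 over LDKO and Jun at −1.45 lie outside the band.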

How the data were processed

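RNA was extracted with TRI Reagent and libraries were made with a SMARTer mRNA kit, per the labels' protocols. The submitters' processing notes name the build mm10. Not given in the sources used here is how reads were aligned, counted and normalized. The deposited table holds log2 values. As judged from the values, the authors scaled each library, set a floor at 1 and centred each gene on its median, so the level of a gene was recovered from the rounding step or the floor. This step was tested on simulated tables. limma 3.58.1 in R 4.3.3 was fitted to all 6 libraries with 1 mean per genotype, 3 residual degrees of freedom, and robust priors in 3 ranges of level. The fit was tested on simulated data with known changes. The p-values and corrected p-values of the authors' deposited lists were used only to find which F-box genes are listed. Positions are from GENCODE M21 on GRCm38, which placed all 66 genes. Members and lists were chosen with earlier results of these data known. Genes named are those that passed, the 8 with the smallest p in each comparison, and fixed role groups, except for 1 gene whose result is not reported here. Fbxl13, Fbxo43 and Fbxw10, Glmn, Cul1, Ect2l, Lmo7, Lrrc29, Pnpla2, Retn, and the neighbour Mad2l2 were named after their values were seen. Btrc, Kdm2a, Skp1a, Rbx1 and Irs1 were named from the lists without a set rule. Alternatives varied the prior, level filter, libraries, block, scale and threshold.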

Additional observations from a re-analysis of the deposited data

How the results depend on the processing

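The groups hold 2 libraries each and depth is unknown, so small changes of low genes could not be resolved. Over the 25 F-box genes that the naming rule takes, no alternative turned the direction of a call. Fbxo44 kept its call in LTKOFstL/L against Control with a spline trend over the level, at level 8 or more, with the replicate block, with either scale, without the acinar genes and with only the groups compared. The reasons for the changes below were not tested. F-box genes called, with 1 in LTKOFstL/L against Control, 0 in LTKOFstL/L against LDKO and 0 in LDKO against Control, became 2, 2 and 0 at an adjusted p under 0.10 and 8, 9 and 2 at an unadjusted p under 0.05. With 1 prior over all genes or no level filter the first count was 0, and with only the 2 groups compared it was 2. The second was 1 with level 8 or more and 1 with the SCF core list set to 0, and the spline gave 1 in the second and 1 in the third. Leaving out 1 replicate at a time gave 0 to 2, 0 to 4 and 0.

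All genes called were 339, 416 and 43 in the same order. At an adjusted p under 0.10 the first 2 became 602 and 992, and at an unadjusted p under 0.05 the counts were 2617, 3245 and 1199. With 1 prior over all genes the counts were 23, 53 and 1. The simulated tables take the main fit as true, so they cannot show whether this setting is too strict. No level filter gave 86, 191 and 2, and leaving out 1 replicate at a time gave 70 to 605, 37 to 677 and 2 to 51. The spline gave 80 in LDKO against Control, and leaving out the acinar genes gave 7 there. Only the 2 groups compared gave 605 in LTKOFstL/L against Control. The SCF core scale gave 782 in LTKOFstL/L against LDKO, with 167 higher and 615 lower, against 194 and 222, and moved the split of LTKOFstL/L against Control to 99 up and 283 down, against 134 and 205.

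Labels give the genotypes the same replicate numbers, but number-1 libraries deviated together by correlations of −0.04 for LTKOFstL/L with Control, −0.18 for LTKOFstL/L with LDKO and 0.19 for LDKO with Control, so the numbers were not taken as pairs. With the replicate block the Cry2 and Per1 calls in LTKOFstL/L against LDKO were lost (adjusted p = 0.0746 and 0.0816), the F-box counts were 1, 0 and 0 and the counts of all genes were 258, 278 and 45. A crossed pairing, chosen after seeing the data, gave 5, 7 and 0 F-box genes and 823, 1603 and 95 genes in all.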
